A study of Mus musculus with 3 samples.

Results

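The genes described are the light chain genes of the immunoglobulins, namely the kappa constant gene Igkc, the lambda constant genes Iglc1, Iglc2 and Iglc3 and the lambda variable genes Iglv1, Iglv2 and Iglv3. They were chosen by name, and the 7 names matched 7 of the 27088 genes of the deposited table. An antibody or B cell receptor pairs heavy chains with light chains of 1 kind, kappa or lambda. A light chain gene is assembled when a variable (V) segment joins a joining (J) segment, which is then spliced to a constant (C) gene. In the mouse, kappa chains predominate, and the small lambda locus joins Iglv1 to Iglj1 or Iglj3, and Iglv2 and Iglv3 mainly to Iglj2, each J segment lying in front of the constant gene of the same number.

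The RNA came from B cells sorted from spleens of female BALB/c mice, aged 6 weeks at the start and labelled as 13 weeks old. In the PBS and SJMHE1 groups, allergic rhinitis had been induced with ovalbumin (OVA), given at 10 μg with 2 mg aluminum hydroxide into the peritoneum on days 0, 7 and 14, and at 100 μg into the nose daily from day 21 to day 27 and from day 29 to day 35. The PBS group was injected under the skin with saline on days 0, 14 and 28, and the SJMHE1 group with 10 μg of SJMHE1, a Schistosoma japonicum peptide, in incomplete Freund's adjuvant. The PBS injections held no adjuvant, so effects of peptide and adjuvant cannot be told apart. Healthy Control mice make up the third group, whose library was not analysed here because the remaining 2 value columns bear a name that matches no sample. Samples from 3 mice were pooled in each group, which left 1 library per group, so the comparison has no replicate check and no test. Library totals were 48267168 counts for PBS and 51280237 for SJMHE1. All 10 markers of the B cell list were detected in both libraries, with an FPKM (fragments per kilobase of gene and 1000000 fragments of the library) for Cd79a of 835.02 in PBS and 835.2 in SJMHE1. T cell markers were also present and were lower in SJMHE1, with a summed FPKM of 56.1 in PBS and 14.7 in SJMHE1 over 11 genes, none of which was at 0. For 10 macrophage genes, the summed FPKM was 30.3 in PBS and 26.5 in SJMHE1. Most of these genes went the other way. Of the 8 that passed the filter given below, 5 were higher and 3 lower in SJMHE1, with a median log2 ratio of 0.30. The sum for 7 neutrophil genes was 317 in PBS and 418 in SJMHE1, yet 4 were lower and 3 higher, with a median of -0.22. The sums were 14.3 and 6.61 for 6 NK cell genes and 149 and 197 for 7 erythroid genes. They were 7.83 and 3.78 for 6 dendritic cell genes. The part of the cells of these lists in the light chain values was not tested.

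The coding sequences show which of these genes can be told apart by their reads. A stretch of 300 coding bases of each lambda constant gene is given 5′ to 3′ on the transcribed strand, which is the minus strand of chromosome 16 in GRCm38, as GENCODE M21 has it. The stretch begins at the first coding base of the exon in Iglc1 and Iglc3, and 1 base further on in Iglc2. Capitals mark the bases of Iglc2 and Iglc3 that differ between the pair, and the bases of Iglc1 that differ from Iglc2 or have no partner in it.
Iglc1 (chr16:19061772-19062071): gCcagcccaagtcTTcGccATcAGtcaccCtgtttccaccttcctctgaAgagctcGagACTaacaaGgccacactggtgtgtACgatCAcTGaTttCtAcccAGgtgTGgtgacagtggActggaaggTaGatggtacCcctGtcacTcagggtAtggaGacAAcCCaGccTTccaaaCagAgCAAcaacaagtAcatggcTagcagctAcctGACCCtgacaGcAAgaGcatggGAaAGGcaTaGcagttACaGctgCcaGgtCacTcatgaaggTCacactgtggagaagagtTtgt
Iglc2 (chr16:19198553-19198852): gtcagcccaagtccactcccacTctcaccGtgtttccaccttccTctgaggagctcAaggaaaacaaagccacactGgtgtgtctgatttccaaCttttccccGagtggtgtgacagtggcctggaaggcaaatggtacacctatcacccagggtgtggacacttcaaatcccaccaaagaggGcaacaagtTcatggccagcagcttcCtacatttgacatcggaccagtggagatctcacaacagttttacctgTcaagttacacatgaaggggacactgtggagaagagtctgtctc
Iglc3 (chr16:19065382-19065681): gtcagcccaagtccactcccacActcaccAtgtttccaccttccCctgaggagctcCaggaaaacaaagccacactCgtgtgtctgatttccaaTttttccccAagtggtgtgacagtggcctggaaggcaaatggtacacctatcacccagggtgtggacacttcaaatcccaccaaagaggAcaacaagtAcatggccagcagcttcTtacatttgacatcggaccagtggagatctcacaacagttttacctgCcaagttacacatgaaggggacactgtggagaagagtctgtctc
Over the whole coding part from these starts on, Iglc2 and Iglc3 were identical at 303 of 314 bases, or 96.5%. Iglc1 matched Iglc2 at 234 of 313 aligned bases, or 74.8%. Igkc, on the plus strand of chromosome 6 at chr6:70726435-70726966, matched Iglc2 at 58.3% of the aligned bases. The first 300 bases of the second coding exons of Iglv1 and Iglv2 follow in the same way, with capitals at the bases that differ between them.
Iglv1 (chr16:19085022-19085321): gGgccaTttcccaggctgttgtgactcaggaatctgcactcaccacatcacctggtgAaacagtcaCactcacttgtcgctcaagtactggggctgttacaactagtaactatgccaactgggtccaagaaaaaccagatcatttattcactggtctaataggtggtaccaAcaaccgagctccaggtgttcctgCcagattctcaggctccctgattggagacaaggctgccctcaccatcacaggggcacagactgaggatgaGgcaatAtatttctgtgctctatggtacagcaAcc
Iglv2 (chr16:19260406-19260705): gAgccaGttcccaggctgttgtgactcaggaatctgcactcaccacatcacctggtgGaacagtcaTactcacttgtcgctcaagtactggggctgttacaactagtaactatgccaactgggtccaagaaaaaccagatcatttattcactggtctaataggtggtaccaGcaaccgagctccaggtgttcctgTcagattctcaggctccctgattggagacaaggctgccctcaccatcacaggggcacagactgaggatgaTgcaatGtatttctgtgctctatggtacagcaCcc
Over the whole exon, this pair was identical at 296 of 305 bases, or 97.0%, whereas Iglv3 matched Iglv1 at 56.2%. Of all windows of 50 bases in the GENCODE transcripts, 22.2% of those of Iglv1 and 21.1% of those of Iglv2 also occur in the other gene. For the constant genes, 7.65% of the windows of Iglc2 occur in Iglc3, and 10.7% of those of Iglc3 in Iglc2. A further 11.7% of the windows of Iglc3 occur, on the opposite strand, in the antisense gene 2010309G21Rik. No window of Igkc, Iglc1 or Iglv3 occurred in a transcript of another gene. The authors' counting could thus have split reads within each of the close pairs, so that the single values of Iglc2, Iglc3, Iglv1 and Iglv2 are less certain than those of Igkc, Iglc1 and Iglv3. The reference is of C57BL/6J, and BALB/c alleles may differ from it.

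Igkc (ENSMUSG00000076609) was by far the most abundant of the 7 genes. Its FPKM was 7952 in PBS, from 232192 counts, and 7579 in SJMHE1, from 234268 counts. In rank among all genes of the table by FPKM, it stood at 4 in PBS and at 2 in SJMHE1. The exact Poisson interval of its level, which like every interval below is a 95% interval and covers counting error only, ran from 7919 to 7984 in PBS and from 7548 to 7610 in SJMHE1. The log2 ratio of SJMHE1 to PBS was -0.07, with a counting interval from -0.08 to -0.06, so the SJMHE1 level was 0.953 times the PBS level. Per length, Igkc stood at 1.93 times the FPKM of Ighm, the constant gene of the IgM heavy chain, in PBS and at 1.77 times in SJMHE1. A long noncoding RNA gene, Gm30211, spans Igkc on the same strand and held 4232 counts in PBS and 5052 in SJMHE1.

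The lambda constant genes were far less abundant than Igkc, which had 15.3 times the deposited FPKM of Iglc2, the highest of them, in PBS. Iglc2 (ENSMUSG00000076937, chr16:19198396-19200351, minus strand) had an FPKM of 518 in PBS, from 17404 counts, and of 466 in SJMHE1, from 16582 counts. Iglc3 (ENSMUSG00000105547, chr16:19065230-19065681, minus strand) had an FPKM of 388, from 9622 counts, and of 353, from 9272 counts. These near-copies had similar log2 ratios of -0.15 (interval -0.18 to -0.12) for Iglc2 and -0.14 (interval -0.18 to -0.09) for Iglc3. Iglc1 (ENSMUSG00000105906, chr16:19061618-19062071, minus strand), the constant gene of the lambda 1 chain, had an FPKM of 324 in PBS, from 8083 counts, and of 238 in SJMHE1, from 6282 counts. Its log2 ratio was -0.45 (interval -0.49 to -0.40), and this interval lies wholly below those of Iglc2 and Iglc3. In SJMHE1 its level was 0.734 times that in PBS.

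Among the lambda variable genes, Iglv1 and Iglv2 were lower and Iglv3 was higher in the SJMHE1 library. Iglv1 (ENSMUSG00000076934, chr16:19085017-19085500, minus strand) had an FPKM of 409 in PBS, from 8781 counts, and of 314 in SJMHE1, from 7133 counts, a log2 ratio of -0.38 (interval -0.43 to -0.34). Iglv2 (ENSMUSG00000076940, chr16:19260401-19260859, minus strand) had an FPKM of 295, from 5920 counts, and of 214, from 4549 counts, a log2 ratio of -0.46 (interval -0.52 to -0.41). Iglv3 (ENSMUSG00000076939, chr16:19241207-19241690, minus strand), which encodes the variable part of the rare lambda x chain, had an FPKM of 120, from 2512 counts, and of 152, from 3376 counts. Its log2 ratio was 0.34 (interval 0.27 to 0.42), and it was the only one of the 7 genes above 0.

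**Figure D1:**
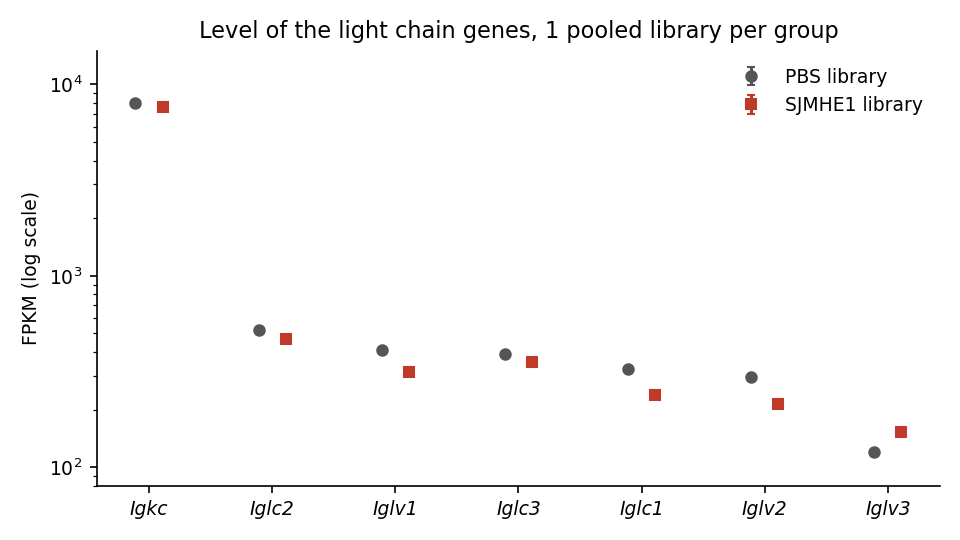
FPKM (log scale) of the 7 light chain genes in the PBS library (grey circles) and the SJMHE1 library (red squares), 1 pooled library per group, ordered by the PBS level. Bars are 95% counting intervals and are mostly smaller than the symbols. Igkc stands far above the lambda genes, and Iglv3 alone is higher in SJMHE1.

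The order of the levels differed between the libraries in 1 place. In PBS it ran from Igkc through Iglc2, Iglv1, Iglc3, Iglc1 and Iglv2 to Iglv3. In SJMHE1, Iglc3 stood above Iglv1 and the rest of the order was as in PBS. No counting intervals of neighbours in either order overlapped. The level of Iglc2, though not its place in this order, depends on the gene length behind its FPKM. The counts and the FPKM give a length of 612 bases, which is the union of its GENCODE exons and includes an upstream exon that holds Iglj2. Per constant exon alone, which has 458 bases, the level of Iglc2 would be 692 in PBS and 623 in SJMHE1, and its ratio between the libraries would not move.

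None of the 7 genes was past a 2-fold difference in either direction. Genes entered this comparison if their FPKM reached 1 in either library and neither value was 0. Of these 12433 genes, 6.0% were past it, 2.43% higher and 3.57% lower in SJMHE1. All 7 passed this filter, and 6 lay below 0 on the log2 scale, beside 6453 of the 12433 genes. The 7 ratios are not independent, since V and C reads come from the same transcripts and the close pairs can share reads. The median log2 ratio of the 7 genes was -0.15, beside -0.01 over all genes compared. Read against genes of like abundance, the ratios were of different standing. The 371 genes whose FPKM reached 100 in both, which include these 7, had a median log2 ratio of -0.07. Of the 371, 90% lay between -0.41 and 0.50. Igkc was at the middle of this range, with 50.4% of these genes at or below it. Only 4.31% lay as low as Iglc1 and 3.77% as low as Iglv2, and 5.66% lay as low as Iglv1. For Iglv3, 7.28% lay as high. Each share counts the gene itself. These positions describe the spread between 2 libraries and say nothing of the spread between mice.

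**Figure D2:**
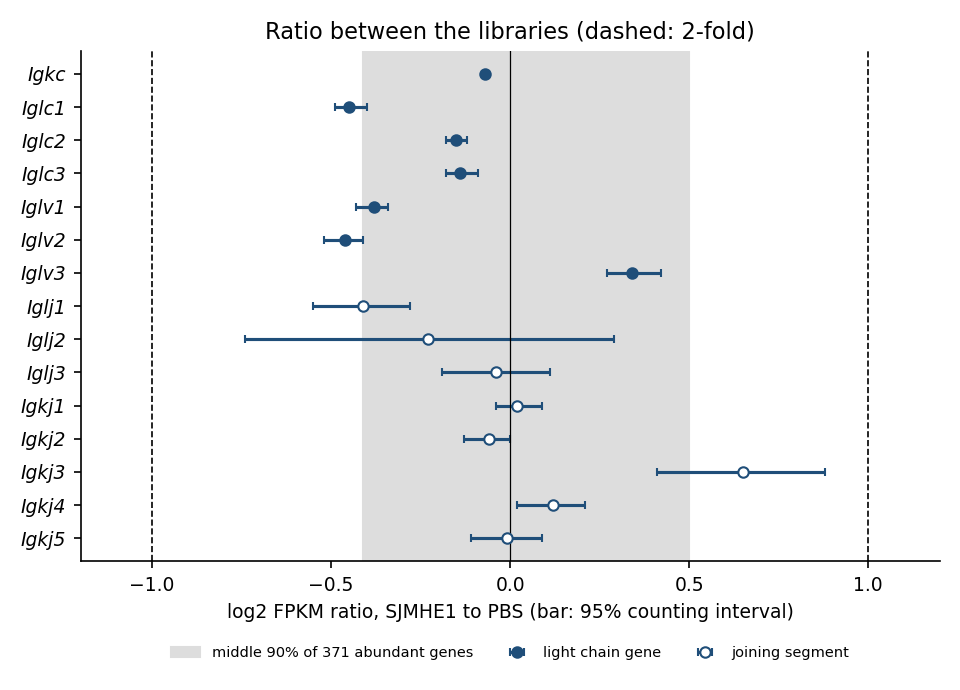
Log2 FPKM ratio of SJMHE1 to PBS for the 7 light chain genes (filled) and the kappa and lambda joining segments (open), with 95% counting intervals. The grey band holds the middle 90% of 371 abundant genes, and the dashed lines mark 2-fold. Iglc1, Iglv2 and Igkj3 lie outside the band and no gene shown reaches 2-fold.

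The kappa to lambda ratio was higher in the SJMHE1 library. Over the constant genes, Igkc FPKM divided by the summed FPKM of Iglc1, Iglc2 and Iglc3 was 6.46 in PBS (interval 6.39 to 6.54) and 7.17 in SJMHE1 (interval 7.08 to 7.25), which is 1.11 times as high (interval 1.09 to 1.13). In counts, lambda made up 35109 of 267301 constant gene reads in PBS, or 13.1% (exact binomial interval 13.0% to 13.3%), and 32136 of 266404 in SJMHE1, or 12.1% (interval 11.9% to 12.2%). The summed FPKM of the lambda constant genes was 1230 in PBS and 1057 in SJMHE1. Both sides of the ratio were thus lower in SJMHE1, lambda by more than Igkc. Against single lambda genes, the ratio was 24.5 in PBS and 31.8 in SJMHE1 for Iglc1, 15.3 and 16.3 for Iglc2, and 20.5 and 21.5 for Iglc3.

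Variable genes and joining segments gave ratios in the same direction. The summed FPKM of the 127 kappa variable genes (Igkv) was 8901 in PBS and 8945 in SJMHE1, and that of Iglv1, Iglv2 and Iglv3 was 824 and 680.3. The kappa to lambda ratio of the variable genes was thus 10.8 in PBS and 13.1 in SJMHE1. Over the joining segments, it was 5.93 (interval 5.64 to 6.23) in PBS and 7.13 (interval 6.77 to 7.52) in SJMHE1. Only 69 reads in PBS and 63 in SJMHE1 were counted to Iglj2, so this ratio holds little of the lambda chains that use Iglc2. Of the 107 Igkv genes that passed the filter, 15 (14.0%) were past 2-fold higher and 6 (5.61%) lower, with a median log2 ratio of 0.03. Of all genes compared, 2.43% were past it higher and 3.57% lower. These shares are not matched for counts, since in short genes a given FPKM rests on fewer counts. Where the minimum FPKM had to be reached in both libraries, calls over all genes fell from 302 to 101 higher and from 444 to 151 lower. Whether the Igkv shares differ from those of genes with like counts was not tested. The most abundant Igkv genes did not go one way. Igkv1-117 had an FPKM of 642 in PBS and 477 in SJMHE1, Igkv1-110 457 and 498, Igkv1-135 437 and 481, Igkv10-96 290 and 447, and Igkv4-74 268 and 375. Since V, J and C reads of a light chain come from the same transcripts and the same libraries, these ratios are not independent of each other.

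**Figure D3:**
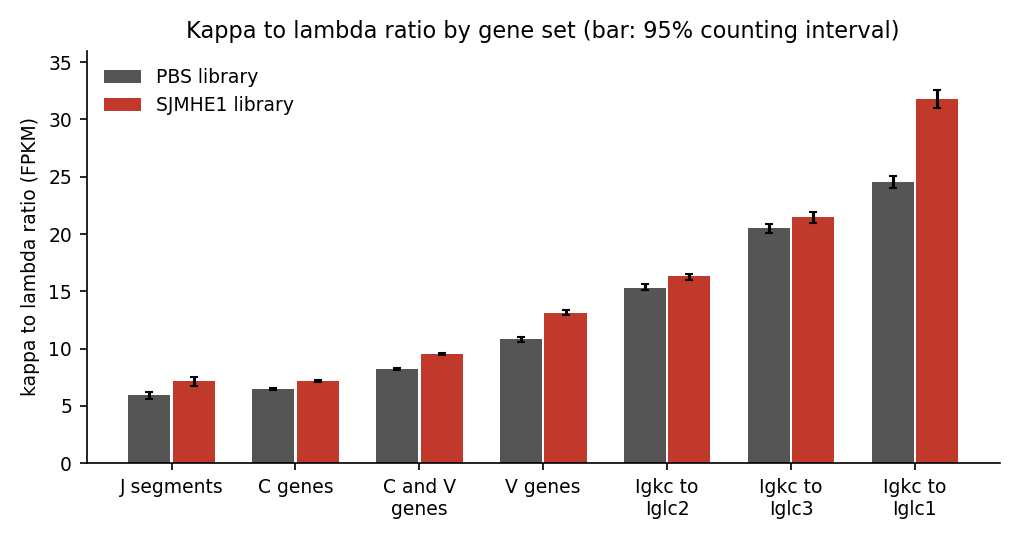
Kappa to lambda FPKM ratio (vertical axis, from 0) for the joining segments, constant genes, constant and variable genes together, variable genes, and Igkc against each lambda constant gene, in the PBS (grey) and SJMHE1 (red) libraries. Bars on the columns are 95% counting intervals. Each SJMHE1 column is higher, and the gap is widest for Iglc1, at 24.5 and 31.8.

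Within lambda, Iglc1, Iglj1 and Iglv1, the genes of the lambda 1 chain, each held a lower share of the counts in SJMHE1. So did Iglv2, so among the variable genes the lower share was not particular to the lambda 1 chain. Iglv1 stood at 1.39 times the FPKM of Iglv2 in PBS and at 1.47 times in SJMHE1. Iglv1 also serves the lambda 3 chain, with Iglj3 and Iglc3. Iglc1 held 23.0% of the lambda constant counts in PBS (interval 22.6% to 23.5%) and 19.5% in SJMHE1 (interval 19.1% to 20%). Iglc2 held 49.6% and 51.6%, and Iglc3 held 27.4% and 28.9%. Iglj1, the joining segment in front of Iglc1, held 55.1% of the counts of Iglj1, Iglj2 and Iglj3 in PBS (interval 52.7% to 57.4%) and 48.8% in SJMHE1 (interval 46.4% to 51.3%), and Iglj3 held 41.0% and 47.2%. Iglj2 held only 3.89% and 3.96%, far below the shares of Iglc2 among the constant genes. It lies within an exon of Iglc2, and whether its reads were counted there was not tested. The joining segment shares thus hold little of the chains that use Iglc2. Iglv1 held 51.0% and 47.4% of the variable counts, Iglv2 held 34.4% and 30.2%, and Iglv3 held 14.6% (interval 14.1% to 15.1%) and 22.4% (interval 21.8% to 23.1%).

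**Figure D4:**
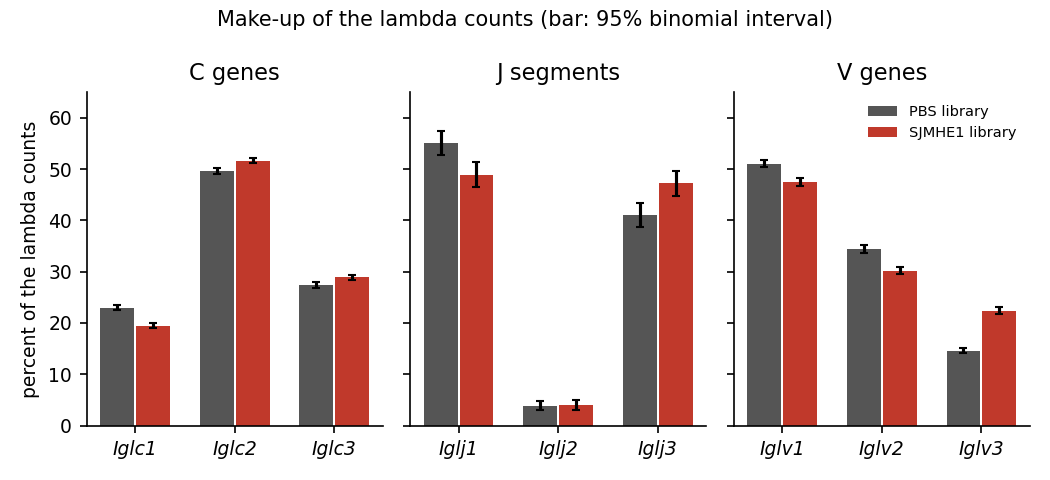
Percent of the lambda counts held by each constant gene, joining segment and variable gene in the PBS (grey) and SJMHE1 (red) libraries, with 95% binomial intervals. The shares of Iglc1, Iglj1, Iglv1 and Iglv2 are lower in SJMHE1, and those of Iglj3 and Iglv3 are higher.

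The log2 ratios of neighbours in the lambda locus can be set side by side. Iglj1 had an FPKM of 468 in PBS, from 978 counts, and of 351 in SJMHE1, from 776 counts, a log2 ratio of -0.41 (interval -0.55 to -0.28), close to the -0.45 of Iglc1 downstream of it. Iglj3 had an FPKM of 349 and 340, a log2 ratio of -0.04 (interval -0.19 to 0.11), beside -0.14 for Iglc3. Iglj2 had 69 counts in PBS and 63 in SJMHE1, too few for a direction, and it overlaps an exon of Iglc2. Upstream of Iglc2, Iglv2 and Iglv3 went in opposite directions although both join Iglj2. Together they stood at 0.801 times the FPKM of Iglc2 in PBS and at 0.786 times in SJMHE1. Iglv1 stood at 0.574 times the summed FPKM of Iglc1 and Iglc3 in PBS and at 0.531 times in SJMHE1. Variable reads were thus scarcer per length than constant reads in lambda, at 0.670 and 0.643 times over all 3 genes of each kind, whereas the Igkv genes summed to 1.12 and 1.18 times Igkc. An antisense gene, 2010309G21Rik, spans Iglv1, Iglc3 and Iglc1 on the plus strand and held 379 counts in PBS and 421 in SJMHE1. Its transcripts share windows with Iglc3 but not with Iglc1 or Iglv1, so if strand was not used in counting, reads from that stretch of Iglc3 cannot be told apart from its own.

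**Figure D5:**
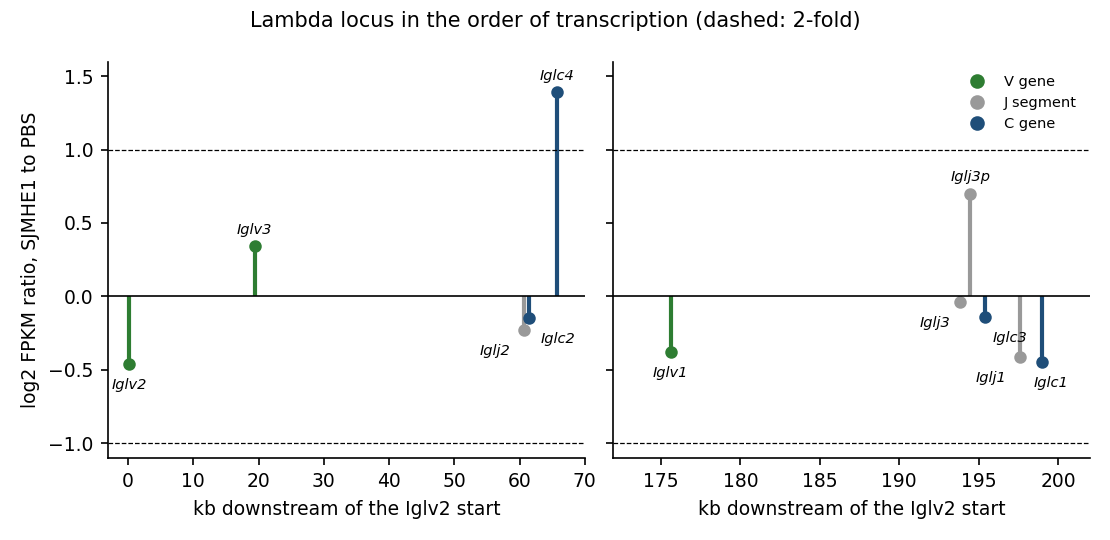
Log2 FPKM ratio of SJMHE1 to PBS along the lambda locus, for the V genes (green), J segments (grey) and C genes (blue) that passed the FPKM filter, by distance in kb downstream of the Iglv2 start, with the empty stretch between the clusters left out and a different scale in each panel. Iglj1 and Iglc1 lie at -0.41 and -0.45, Iglj3 and Iglc3 nearer to 0, and the barely expressed Iglc4 stands above 2-fold.

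Of the 11 other light chain genes of the list, 10 passed the filter, 5 of them above 0 and 5 below, with a median log2 ratio of 0.01. Iglc4, annotated as a pseudogene by RefSeq, was the only one past 2-fold. Its FPKM was 1.42 in PBS, from 25 counts, and 3.73 in SJMHE1, from 69 counts, which is 1.39 on the log2 scale (interval 0.71 to 2.12, so reaching below 2-fold). Iglj3p had 15 counts in PBS and 26 in SJMHE1, with an interval of the log2 ratio from -0.27 to 1.72, and Iglj4 had 1 count in each. The kappa joining segments Igkj1, Igkj2, Igkj4 and Igkj5 had log2 ratios between -0.06 and 0.12, while Igkj3, the least abundant of them, had an FPKM of 117 in PBS and 184 in SJMHE1, a log2 ratio of 0.65 (interval 0.41 to 0.88).

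Light chains are assembled with heavy chains in the endoplasmic reticulum and reach the surface with the signalling pair Cd79a and Cd79b. None of the 13 receptor and secretion partners was past 2-fold, with 7 above 0 and 6 below and a median log2 ratio of 0.00. Ighm and Ighd, the heavy chain constant genes of naive B cells, had ratios of 0.06 and 0.11, Cd79a 0.00 and Cd79b -0.07. Of the genes of the list that help antibody chains to fold and assemble, Hsp90b1 had a log2 ratio of 0.57, Pdia4 0.41, Hspa5 0.28 and Mzb1 -0.08. Jchain, which links IgM and IgA into polymers, had an FPKM of 388 in PBS and 313 in SJMHE1, and Sdc1, a surface marker of plasma cells, 5.0 and 3.66. Plasma cells carry far more light chain RNA per cell than other B cells, so their share bears on every value above. Of the 10 plasma cell markers, 7 were below 0 and 3 above, and none was at 0. Over all 12433 genes compared, 6453 were below 0. Of the 10, only Tnfrsf17 was past 2-fold lower, as were 3.57% of all genes compared. It had 87 counts in PBS and 42 in SJMHE1, with an interval of the log2 ratio from -1.72 to -0.60, so reaching inside 2-fold. The 3 markers above 0 were Xbp1, with a log2 ratio of 0.41, Creld2 with 0.38 and Ell2 with 0.07. Summed over the 10 markers, the FPKM was 689 in PBS and 589 in SJMHE1. The largest parts of this sum were Jchain and Irf4, which had an FPKM of 137 in PBS and 106 in SJMHE1. The part of plasma cells in the light chain values was not tested, and in bulk RNA fewer cells of a type and less RNA per cell cannot be told apart.

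Over the 2 libraries, the abundant genes with a log2 ratio nearest to that of Igkc were Rps10, Mknk2 and Cd79b, each at -0.07. Pfn1 and Rpsa were among those nearest to the summed lambda constant genes, each at -0.22. With 1 ratio per gene, such likeness is a closeness of 1 number only.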

How the data were processed

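RNA of sorted spleen B cells, depleted of ribosomal RNA, was sequenced as 1 library per group, from 3 mice mixed. The authors deposited 1 table with counts, which are whole reads per gene and not normalized, and with FPKM values, scaled by gene length and library size and rounded to 2 decimals. The submitters' processing notes name bcl2fastq 2.0, HISAT2, StringTie, DESeq2, limma and mm10. The counting settings and the use of strand are not given in the sources used here. All 7 genes have the coordinates of GENCODE M21 on GRCm38. A further 2 value columns whose name matches no sample were not used, so the planned comparisons with Control were not made.

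The genes and lists were chosen with earlier results of these data known. The genes named are the 7 light chain genes, fixed lists of related genes and markers, the 5 most abundant of the 127 Igkv genes, and the 3 genes nearest in ratio to Igkc and to the summed lambda constant genes, of which 1 is not reported here. 2010309G21Rik and Gm30211 were named after their values were seen. The main measure was the log2 FPKM ratio without a pseudocount, and past 2-fold means above 1 or below -1. Count tests need replicates and could not be fitted. Intervals are exact (Poisson, Clopper-Pearson) at 95%, except for the normal interval of the change in a kappa to lambda ratio. Reads without molecular identifiers are not independent molecules, so intervals cover counting error only. The floor for a gene without reads was set at 3 counts, or 0.0622 CPM in PBS and 0.0585 CPM in SJMHE1. The 2-fold call and the interval of a single gene's ratio were tested on simulated libraries. These were drawn by Poisson sampling from the PBS counts, without variation between mice or libraries. The test thus checks the code under counting error only and says nothing of real spread. The kappa to lambda ratios, the shares and the sequence comparisons were not tested on simulated libraries. Python 3.11.15 with scipy 1.17.1 and Biopython 1.88, and R 4.3.3 with edgeR 4.0.16 (TMM factors only), were used.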

Additional observations from a re-analysis of the deposited data

How the results depend on the processing

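No paired analysis was possible because no group holds more than 1 library and no result comes from a test. The comparisons with Control and their alternatives were not run. The kappa to lambda ratio of the constant gene FPKM, 6.46 in PBS and 7.17 in SJMHE1, was 6.61 and 7.29 in read counts, 8.20 and 9.51 with the variable genes added, 24.5 and 31.8 with Iglc1 as the only lambda gene and 8.78 and 9.25 with Iglc2 and Iglc3. Chosen after seeing the data, the joining segments gave 5.93 and 7.13, and Iglc2 per constant exon gave 5.66 and 6.24. The lambda share of the counts, 13.1% in PBS and 12.1% in SJMHE1, was 11.2% and 9.94% with the variable genes added, 8.64% and 7.22% in the variable genes, 3.36% and 2.61% with Iglc1 as the only lambda gene and, chosen after seeing the data, 13.8% and 11.7% in the joining segments. These settings change the genes summed or their lengths by construction. The ratio was higher in SJMHE1 in 8 of 8 gene sets, which share genes.

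Each of the 7 log2 ratios kept its sign under 7 of 7 alternatives, which were pseudocounts of 0.1 and 1, CPM, TMM, median-of-ratios size factors, and centring on the median or on the B cell list, and 0 of the 7 genes passed 2-fold under any of them. Igkc ranged from -0.08 to -0.02, Iglc1 from -0.46 to -0.40 and Iglv3 from 0.33 to 0.39. Over all genes, 302 were past 2-fold higher and 444 lower. Unfiltered, these numbers were 1367 and 2018. They were 101 and 151 where both values had to reach an FPKM of 1, and 100 and 146 under a pseudocount of 1, and they stayed within 1.5 times under the other alternatives. Low counts limit Iglj2, Iglj3p, Iglj4 and Iglc4, which had under 100 counts in each library, and Iglj2 also overlaps an exon of Iglc2.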

Other observations

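The surrogate light chain, which pairs with the heavy chain in precursor B cells before a light chain gene is assembled, was at or near the detection limit. Igll1 and Vpreb2 had 0 counts in both libraries, which allows up to 3 counts in each. Vpreb1 had 0 counts in PBS and 10 in SJMHE1. The recombinase genes, which cut V and J segments for joining, were also very low, with 30 counts of Rag1 in PBS and 11 in SJMHE1 and 4 and 0 counts of Rag2. Dntt, which adds bases at the joints, had 27 counts in PBS and 0 in SJMHE1, which allows up to 3 counts. Vpreb3, which mature B cells also express, had an FPKM of 24.3 and 25.6.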
